A study of Drosophila melanogaster with 11 samples.

Results

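The genes described here carry a fly cell through mitosis. They are 34 *Drosophila melanogaster* genes chosen by name for their roles, as mitotic kinases, cyclins, regulators of anaphase, spindle checkpoint and chromosomal passenger proteins, kinetochore and centromere proteins, condensin subunits, spindle motors and cytokinesis proteins. They were matched by gene name, and 33 of the 34 were found among the 14595 genes of the deposited expression table. No row carries the name *fzr*, so it is not counted among the 33. Expression was measured by RNA sequencing in intestinal stem cells (ISCs) and enteroblasts (EBs) sorted from the adult midgut, with and without RNAi against *spen*.

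In an animal cell, entry into mitosis is set by the kinase Cdk1 bound to A- and B-type cyclins, and the Polo and Aurora kinases then drive spindle assembly and chromosome condensation. Chromosomes attach to spindle microtubules through kinetochores, and the spindle checkpoint holds the anaphase-promoting complex (APC/C) inactive until all are attached, after which securin and the cyclins are degraded, sister chromatids separate and the cell is cleaved. In the adult fly midgut, ISCs are the main dividing cells. EBs, their daughters with active Notch signaling, leave the division cycle and grow into polyploid enterocytes through endocycles, in which DNA is replicated without mitosis.

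All flies were 5-day-old adult females that carried *esg>GAL4*, *tubGAL80.ts*, *UAS-RFP* and the Notch reporter *nre-GFP*. SPEN flies additionally carried 1 *UAS-spen* RNAi construct, the single line used for these libraries, and the controls labelled wild-type (WT) did not. A shift from 18 to 29°C lasting 2 days induced RFP and the RNAi in every *esg*-expressing cell, so that ISCs and EBs of one gut received the RNAi together. Diploid cells with RFP alone were collected as ISCs, and diploid cells with RFP and GFP as EBs, from whole midguts. The groups are WT-ISC (3 libraries), SPEN-ISC (3), WT-EB (2) and SPEN-EB (3). The second WT-EB library was left out by the authors after a principal component analysis, a choice made on the data that can narrow the spread of WT-EB. The labels call the libraries biological replicates without naming what was kept separate, and p-values measure the spread between these libraries.

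Depth was even, with 28206027 to 31991452 reads on exon bins per library. Expression is given as deposited, in FPKM (fragments scaled for exon length and library size). The deposited FPKM of all genes ran higher in WT-ISC than in WT-EB, and comparisons were therefore made after scaling the libraries to each other. Left unscaled, the tested genes had a median log2 difference of 0.66 between WT-ISC and WT-EB, 0.66 between SPEN-EB and WT-EB and 0.26 between SPEN-ISC and WT-ISC. The FPKM of *spen* does not check the knockdown, because the expressed construct is itself counted on the gene. It lay between 0.255 and 0.620 FPKM in WT-ISC, 1.61 and 5.04 in SPEN-ISC, 0.115 and 0.147 in WT-EB, and 0.920 and 2.24 in SPEN-EB. Outside the exon bin with the most reads, *spen* held 129, 222 and 128 reads in WT-ISC and 143, 219 and 509 in SPEN-ISC. In EBs these reads were 54 and 66 in WT-EB and 454, 87 and 113 in SPEN-EB. Taken as raw reads, not scaled between libraries, they show no fall under the RNAi. Whether they fall after scaling was not tested. Of 7 stem cell marker genes 4 were tested between WT-ISC and WT-EB, 3 had a fold change above 0, and none passed with limma. Without overlap, *spdo* read 0.651 to 5.52 FPKM in WT-ISC and 0.169 and 0.206 in WT-EB (adjusted p = 0.0978). *sna* read 0.459 to 9.80 FPKM in WT-ISC and at most 0.0263 in WT-EB (adjusted p = 0.133). *chn*, below the filter, read 0.450 to 1.73 FPKM in WT-ISC and at most 0.0287 in WT-EB. *wor*, also below it, overlapped. The ligand gene *Dl*, below the filter, read 0.172 to 1.175 FPKM in WT-ISC and at most 0.0167 in WT-EB, *esg* overlapped (4.89 to 100.03 against 4.20 to 8.38 FPKM, adjusted p = 0.625), and *mira* had a log2 fold change of −0.53 (adjusted p = 0.592). Of 6 tested genes of the Notch response 3 had a fold change above 0 and 3 below. *E(spl)m8-HLH* was called higher in WT-ISC (2.07, adjusted p = 0.0088), while *E(spl)m3-HLH* (−1.05, adjusted p = 0.377), *E(spl)mgamma-HLH* (−0.77, adjusted p = 0.428) and *E(spl)mbeta-HLH* (−0.53, adjusted p = 0.618) pointed to WT-EB without passing. Genes of ovary, germline and early embryo, tissues rich in mitotic transcripts, summed to at most 4.49 FPKM in any library, and 12 of 14 were under 1 FPKM in every library.

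The mitosis genes were low to moderate in level and far apart from each other. Summed over the 33 genes, the libraries read 174, 302 and 245 FPKM in WT-ISC replicates 1, 2 and 3, and 40.4 and 50.8 FPKM in WT-EB replicates 1 and 3. With *spen* RNAi the sums were 544, 182 and 393 FPKM in SPEN-ISC and 71.3, 66.6 and 91.4 FPKM in SPEN-EB. Every ISC library thus summed to more than every EB library, and the SPEN-ISC libraries spread over and beyond the range of WT-ISC. In deposited FPKM the group mean was highest in SPEN-ISC for 33 of 33 genes, beside 51.3% of all genes, and lowest in WT-EB for 30, beside 67.2%, the exceptions being *Spc25*, *aur* and *pim*, which were lowest in SPEN-EB. After scaling it was highest in SPEN-ISC for 28 of the 33, beside 26.9% of all genes, and lowest in WT-EB for 22, beside 36.1%. *Bub3* had the highest mean in each of the 4 groups and *thr* the lowest, on the FPKM scale, which is corrected for length. In WT-EB replicates 1 and 3, respectively 10 and 7 of the 33 genes had fewer than 10 fragments, and no gene was at 0 in any library.

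**Figure D1:**
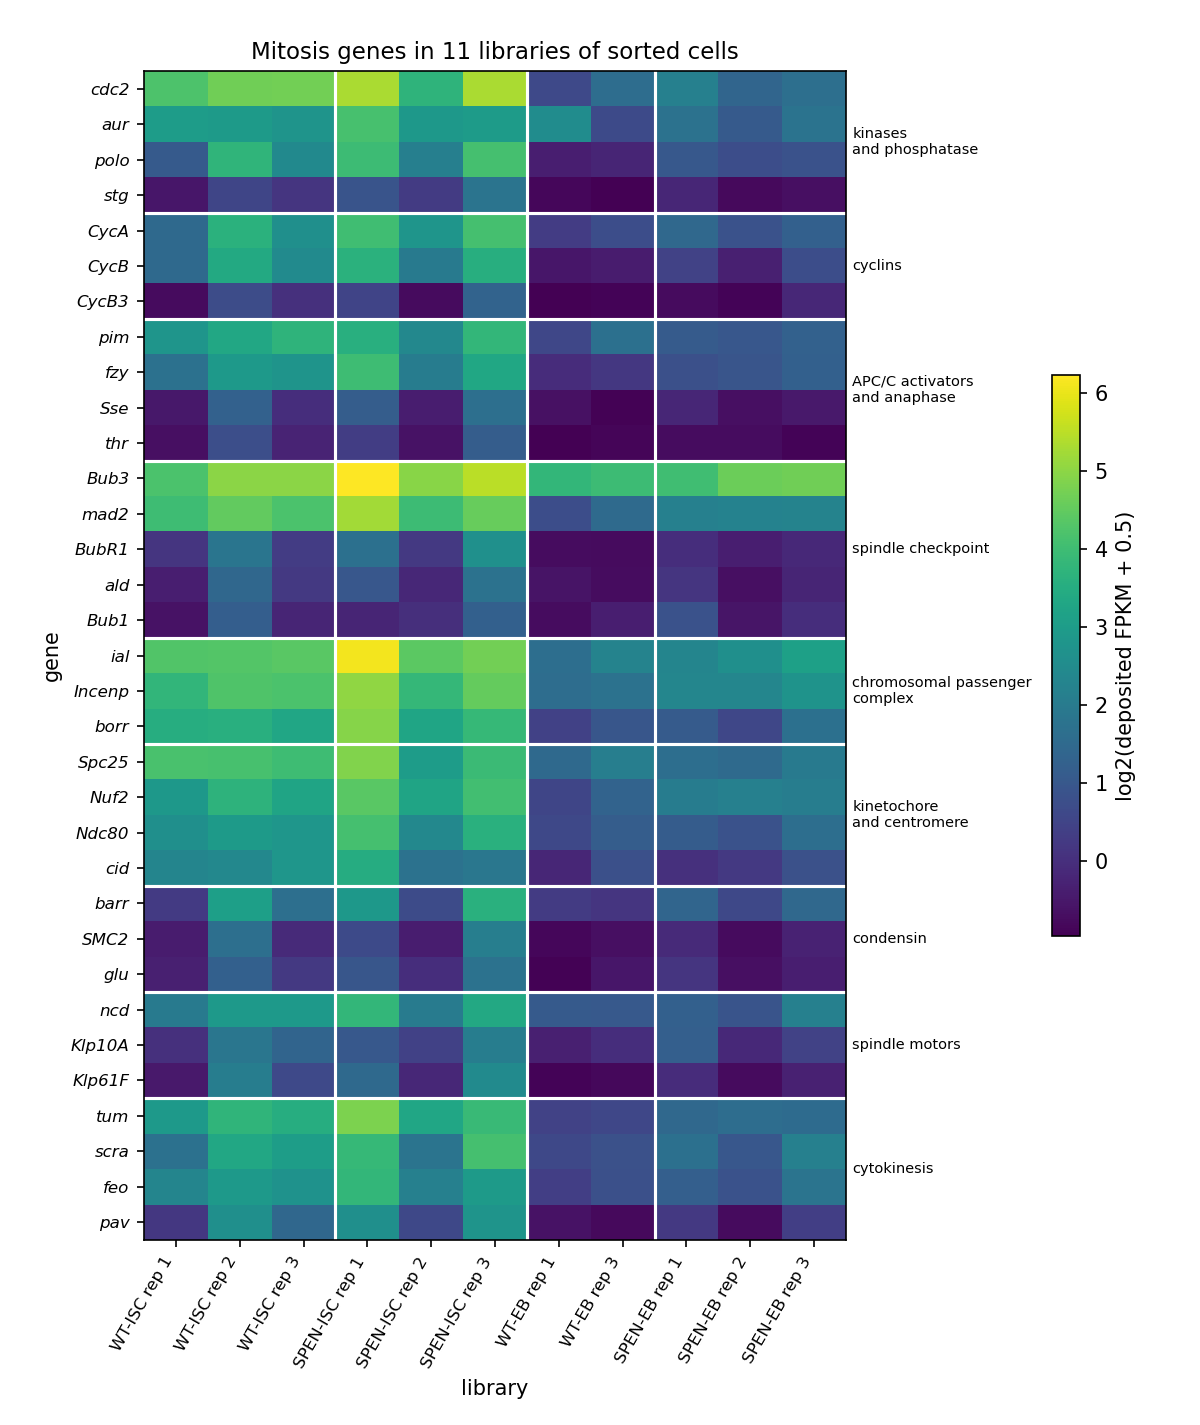
Level of the 33 mitosis genes (rows, grouped by role) in the 11 libraries (columns, grouped by cell type and genotype); colour is log2(deposited FPKM + 0.5). The 6 ISC columns are brighter than the 5 EB columns in most rows, *Bub3* is bright throughout, and WT-ISC replicate 1 and SPEN-ISC replicate 2 are the dimmest ISC libraries.

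The first comparison asked which mitosis genes differ between wild-type ISCs and EBs. The fold changes of all 33 genes were above 0, that is higher in WT-ISC, in a fit of every gene without a filter on level, against 62.2% of all 11103 genes. In that fit the median log2 fold change of the 33 was 1.37, beside 0.06 for all genes. The libraries of WT-ISC and WT-EB did not overlap in deposited FPKM for 31 of the 33, all higher in WT-ISC, with *barr* and *Bub1* as the exceptions. Of all genes, 35.5% were higher without overlap. After scaling the count was 28 of 33 (*barr*, *aur*, *Bub1*, *Bub3* and *Klp10A* overlapped), beside 14.2% of all genes.

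Genes were tested with limma on log2(FPKM + 0.5) if they reached 1 FPKM in at least 2 of the 5 libraries, and p-values were adjusted over all tested genes, with a threshold of 0.05. Of the 33 mitosis genes 24 entered this test and 15 passed, each higher in WT-ISC. Among all 6128 tested genes 156 were higher, which is 2.55%. Genes that enter through a high level in ISCs alone are bound to differ, so the 24 are no fair sample of the 33. The 15 genes are *cdc2*, *polo*, *CycB*, *fzy*, *pim*, *mad2*, *ial*, *Incenp*, *borr*, *Nuf2*, *Spc25*, *cid*, *pav*, *tum* and *feo*. With edgeR on fragment counts recovered from the FPKM 8 of the 33 passed, where 103 of all 7417 genes were higher. The limma fit without a filter tested more genes with lower values. It called 1 of the 33, *cdc2* (adjusted p = 0.0455), where 16 of all 11103 genes were higher. The count was 4 without WT-EB replicate 1, where 62 of all 6971 genes were higher, and 5 without WT-EB replicate 3, where 71 of 6965 were. It was 21 without WT-ISC replicate 1, but there 813 of all 6067 genes were called higher and 1221 lower. Without scaling it was 7, where 90 of 6128 were higher. DESeq2 on exon bin counts called 16 of the 33, where 323 of all 8072 genes were higher. The 16 include *CycA*, *BubR1*, *Klp61F*, *scra* and *thr*, which are not among the 15. In the accounts by gene below, passing or being called refers to the main fit, which is limma with the filter as set out above. Other tests and other settings of limma are named where they are meant, and some of these settings called further genes.

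Under *spen* RNAi the difference between the cell types was found again. All 33 fold changes between SPEN-ISC and SPEN-EB were above 0 without a filter, against 50.4% of all 11421 genes, with a median of 1.46 beside 0.00 for all genes. The libraries did not overlap for 22 of the 33 in deposited FPKM (8.59% of all genes) and for 23 of the 33 after scaling (5.83%). In the test, 22 of the 33 entered and 8 were higher in SPEN-ISC, while 36 of all 6225 tested genes were higher, which is 0.578%. The 8 genes were *cdc2*, *polo*, *CycA*, *CycB*, *pim*, *mad2*, *borr* and *tum*, of which 7 were also among the 15 called in WT cells (46.7% of the 15 and 87.5% of the 8). *pav*, among the 15, was below the filter under *spen* RNAi and could not be called there. The overlap is a description only, as the same share over all called genes is not given here. Without a filter none of the 33 passed with limma, where 1 of all 11421 genes was higher. In that fit 26 of the 33 had an unadjusted p under 0.05, beside 660 of all genes. With edgeR on recovered fragments 2 were called, *CycA* and *cdc2*, where 16 of all 7377 genes were higher. Without SPEN-ISC replicate 1 the limma count with the filter was 2, where 24 of all 6618 genes were higher. Without SPEN-ISC replicate 3 it was 14, where 73 of 6310 were. DESeq2 on exon bin counts called 20 of the 33, where 136 of all 7988 genes were higher. Beyond the 8 these were *BubR1*, *Incenp*, *Klp61F*, *Ndc80*, *Spc25*, *aur*, *cid*, *feo*, *fzy*, *ial*, *pav* and *stg*.

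**Figure D2:**
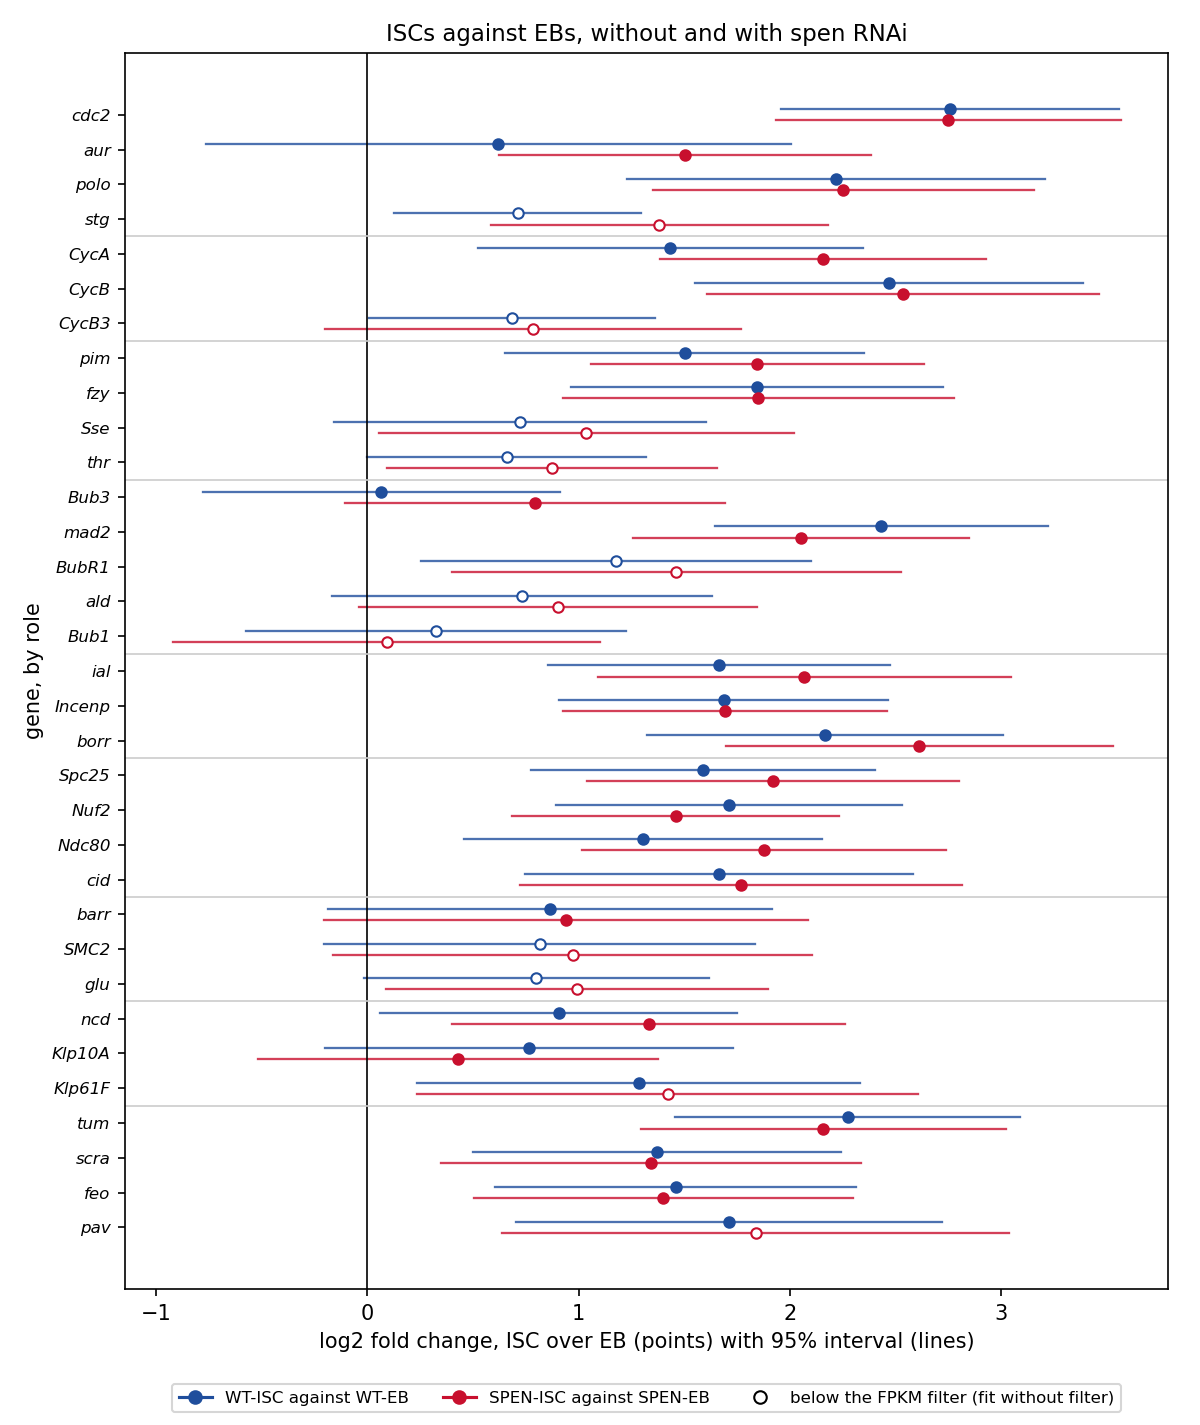
Log2 fold change of ISCs over EBs for each mitosis gene, in WT (blue) and under *spen* RNAi (red); points are limma estimates, lines their 95% intervals, and open points are genes below the FPKM filter, taken from the fit without it. The points lie above 0, from *Bub3* (0.07) to *cdc2* (2.76) in WT and from *Bub1* (0.09) to *cdc2* (2.75) under *spen* RNAi.

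Markers of enteroendocrine cells, the hormone-secreting lineage of the midgut, and of enterocytes were also at higher levels in the WT-ISC than in the WT-EB libraries. Of 12 enteroendocrine genes 10 were tested in WT and 8 were higher in WT-ISC, and under *spen* RNAi 5 of 9 tested were higher in SPEN-ISC. They summed to 1399 to 2550 FPKM in WT-ISC, 165 to 2995 in SPEN-ISC, 18.2 to 25.6 in WT-EB and 9.25 to 17.2 in SPEN-EB, while *pros*, which marks the lineage, stayed at or below 0.284 FPKM in every library. Enterocyte markers summed to 1872 to 3450 FPKM in WT-ISC and 313 to 385 in WT-EB. Of 8 tested, 7 had a log2 fold change above 0 and 1, *Jon99Ciii*, passed (2.32, adjusted p = 0.00787). Whether the makeup of the sorted cells plays a part in the mitosis gene differences was not tested. In sorted bulk RNA, fewer dividing cells and less RNA per cell cannot be told apart.

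Among the kinases, *cdc2* had the largest fold change of the 33 genes in both genotypes. It is now named *Cdk1*, encodes the kinase that starts mitosis, and lies on chromosome arm 2L, 10384739 to 10386262 (BDGP5). *cdc2* read 18.2, 25.3 and 25.6 FPKM in WT-ISC replicates 1, 2 and 3 and 1.04 and 2.57 FPKM in WT-EB replicates 1 and 3. With *spen* RNAi it read 39.8, 12.7 and 39.9 FPKM in SPEN-ISC and 3.98, 2.09 and 2.69 FPKM in SPEN-EB, in replicates 1 to 3. All ISC libraries lay above all EB libraries, and SPEN-ISC replicate 2 was the lowest of the ISC libraries. On the log2 scale ISCs exceeded EBs by 2.76 (standard error 0.39, adjusted p = 4.80e-05) in WT and 2.75 (standard error 0.38, adjusted p = 0.00537) under *spen* RNAi. In WT *cdc2* passed in 16 of 16 alternatives, the highest adjusted p being 0.0455. *polo* (chromosome arm 3L, 20302754 to 20306566) encodes the Polo kinase, which acts from spindle assembly to cytokinesis. It read 1.60, 12.8 and 5.01 FPKM in the WT-ISC libraries and 0.275 and 0.356 FPKM in the WT-EB libraries, in the same order of replicates as used throughout. WT-ISC replicate 1 stood far below the other WT-ISC libraries and was still above WT-EB. *polo* read 15.2, 3.94 and 16.7 FPKM in SPEN-ISC and 1.52, 1.16 and 1.30 FPKM in SPEN-EB, without overlap. Its log2 fold change was 2.22 (standard error 0.48, adjusted p = 0.00643) in WT and 2.25 (standard error 0.42, adjusted p = 0.0242) under *spen* RNAi.

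*aur*, which encodes Aurora A, the centrosomal Aurora kinase, did not pass in the main limma fit in either genotype. Under *spen* RNAi it was called by DESeq2 on exon bin counts and by limma without SPEN-ISC replicate 3. Its WT-EB libraries disagreed, with 5.31 FPKM in replicate 1 and 1.07 in replicate 3, beside 6.24 to 7.52 FPKM in WT-ISC. The log2 fold change was 0.62 (standard error 0.62, adjusted p = 0.629) in WT and 1.5 (standard error 0.40, adjusted p = 0.164) under *spen* RNAi. *stg* encodes the phosphatase String, the fly Cdc25 that activates Cdk1, and it was the lowest member of this class. It held 13, 63 and 41 fragments in WT-ISC and 4 and 1 in WT-EB, and 97, 47 and 202 in SPEN-ISC against 25, 5 and 9 in SPEN-EB. The counts did not overlap between the cell types in either genotype, but *stg* was below the filter in both comparisons. Without the filter *stg* did not pass with limma (adjusted p = 0.419 and 0.335), while DESeq2 on exon bin counts called it under *spen* RNAi.

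In every group the mean FPKM of *CycA* was more than 10 times that of *CycB3*, with *CycB* between them. *CycA* (chromosome arm 3L, 11819819 to 11826678) encodes the cyclin of S phase and early mitosis. It read 2.30, 12 and 5.59 FPKM in WT-ISC, 0.745 and 1.17 in WT-EB, 15.9, 6.41 and 16.7 in SPEN-ISC and 2.28, 1.31 and 1.88 in SPEN-EB. Within each genotype the cell types did not overlap, although WT-ISC replicate 1 was hardly above the highest SPEN-EB library. *CycA* passed under *spen* RNAi, where the log2 fold change was 2.16 (standard error 0.36, adjusted p = 0.0130), and not in WT, where it was 1.43 (standard error 0.44, adjusted p = 0.0788). The test of whether these differ, the interaction of RNAi and cell type, gave −0.81 (95% interval −1.93 to 0.32, adjusted p = 0.976), so a difference between the genotypes is not shown. *CycB* encodes the main mitotic cyclin that is degraded at anaphase. It read 2.30, 10.02 and 5.09 FPKM in WT-ISC and 0.192 and 0.253 FPKM in WT-EB. It read 11.8, 3.39 and 11.3 FPKM in SPEN-ISC and 0.867, 0.289 and 1.16 FPKM in SPEN-EB. The cell types did not overlap, and the lowest ISC libraries were WT-ISC replicate 1 and SPEN-ISC replicate 2. For *CycB* the log2 fold change was 2.47 (standard error 0.45, adjusted p = 0.00115) in WT and 2.53 (standard error 0.43, adjusted p = 0.0151) under *spen* RNAi. *CycB3*, a further mitotic cyclin, held 5, 63 and 29 fragments in WT-ISC and 1 and 2 in WT-EB and was too low for the test in all 4 pairwise comparisons.

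Of the genes of anaphase, *fzy* encodes the Cdc20 activator of the APC/C and *pim* the securin that the APC/C destroys. *fzy* read 2.82, 7.10 and 6.32 FPKM in WT-ISC and 0.469 and 0.655 FPKM in WT-EB. *fzy* read 15.5, 3.66 and 9.51 FPKM in SPEN-ISC and 1.23, 1.39 and 1.86 FPKM in SPEN-EB. The cell types were apart in both genotypes, and the call was made in WT only: 1.84 (standard error 0.43, adjusted p = 0.0108) on the log2 scale in WT and 1.85 (standard error 0.43, adjusted p = 0.0722) under *spen* RNAi, with an interaction of −0.05 (95% interval −1.23 to 1.14). *pim* (chromosome arm 2L, 10362989 to 10364092) read 6.35, 9.76 and 12.6 FPKM in WT-ISC and 0.969 and 2.75 FPKM in WT-EB. *pim* read 11.4, 4.73 and 13.5 FPKM in SPEN-ISC and 1.62, 1.48 and 1.90 FPKM in SPEN-EB. WT-EB replicate 3 was the highest EB library for *pim*, and no ISC library fell to its level. The log2 fold change was 1.5 (standard error 0.41, adjusted p = 0.0393) in WT and 1.84 (standard error 0.36, adjusted p = 0.0371) under *spen* RNAi. These calls were lost in 11 of 16 alternatives in WT, with a log2 fold change down to 0.94, and in 10 of 17 under *spen* RNAi. *thr*, which works with *pim* in the separase complex, and *Sse*, which encodes separase itself, were below the filter in both comparisons. *thr* held 157 fragments over the 3 WT-ISC libraries and 5 over the 2 WT-EB libraries, and *Sse* held 124 and 8.

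Of the 5 spindle checkpoint genes, *mad2* was the one that passed with limma between ISCs and EBs. DESeq2 on exon bin counts called *BubR1* in both genotypes. *mad2* (chromosome arm 3L, 5805235 to 5806193) encodes the protein that binds Cdc20 at unattached kinetochores. It read 15.3, 22.2 and 17.7 FPKM in WT-ISC and 1.16 and 2.38 FPKM in WT-EB. It read 36.9, 15.2 and 23.1 FPKM in SPEN-ISC and 3.99, 4.21 and 4.23 FPKM in SPEN-EB. The lowest ISC library, SPEN-ISC replicate 2, stood well above the highest EB library. The difference for *mad2* on the log2 scale was 2.43 (standard error 0.38, adjusted p = 0.000186) in WT and 2.05 (standard error 0.37, adjusted p = 0.01995) under *spen* RNAi. On exon bin counts *mad2* did not pass in WT (adjusted p = 0.162 with edgeR and 0.134 with DESeq2). It held 117 and 164 exon bin reads beside 22 and 44 fragments in WT-EB. In WT-ISC it held 453, 635 and 523 beside 277, 395 and 318. The exons of *mad2* overlap CG5537 on the opposite strand, and the part of that gene in the bin counts was not tested. *Bub3* encodes a checkpoint protein that also belongs to other complexes, and it was the most abundant of the 33 genes in every group. It read 17.8, 31.1 and 31.2 FPKM in WT-ISC and 13.5 and 15.1 FPKM in WT-EB. It read 74.95, 30.7 and 44.7 FPKM in SPEN-ISC and 15.7, 24.1 and 25.01 FPKM in SPEN-EB. The cell types were apart in deposited FPKM and overlapped after scaling in both genotypes. The log2 fold change in WT was 0.07 (standard error 0.41, adjusted p = 0.945), with a 95% interval of −0.78 to 0.91, and it was below 0 with median-of-ratios scaling, so no direction is given. Under *spen* RNAi it was 0.79 (standard error 0.41, adjusted p = 0.975). The interval in WT leaves out the fold changes of *mad2* and *cdc2*. *Bub1*, *BubR1* and *ald* encode the checkpoint kinases Bub1, BubR1 and Mps1. They were below the filter in both comparisons, and *Bub1* overlapped between the cell types in both genotypes. *BubR1* held 64, 324 and 79 fragments in WT-ISC against 11 and 10 in WT-EB, and *ald* held 13, 104 and 31 against 8 and 5.

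**Figure D3:**
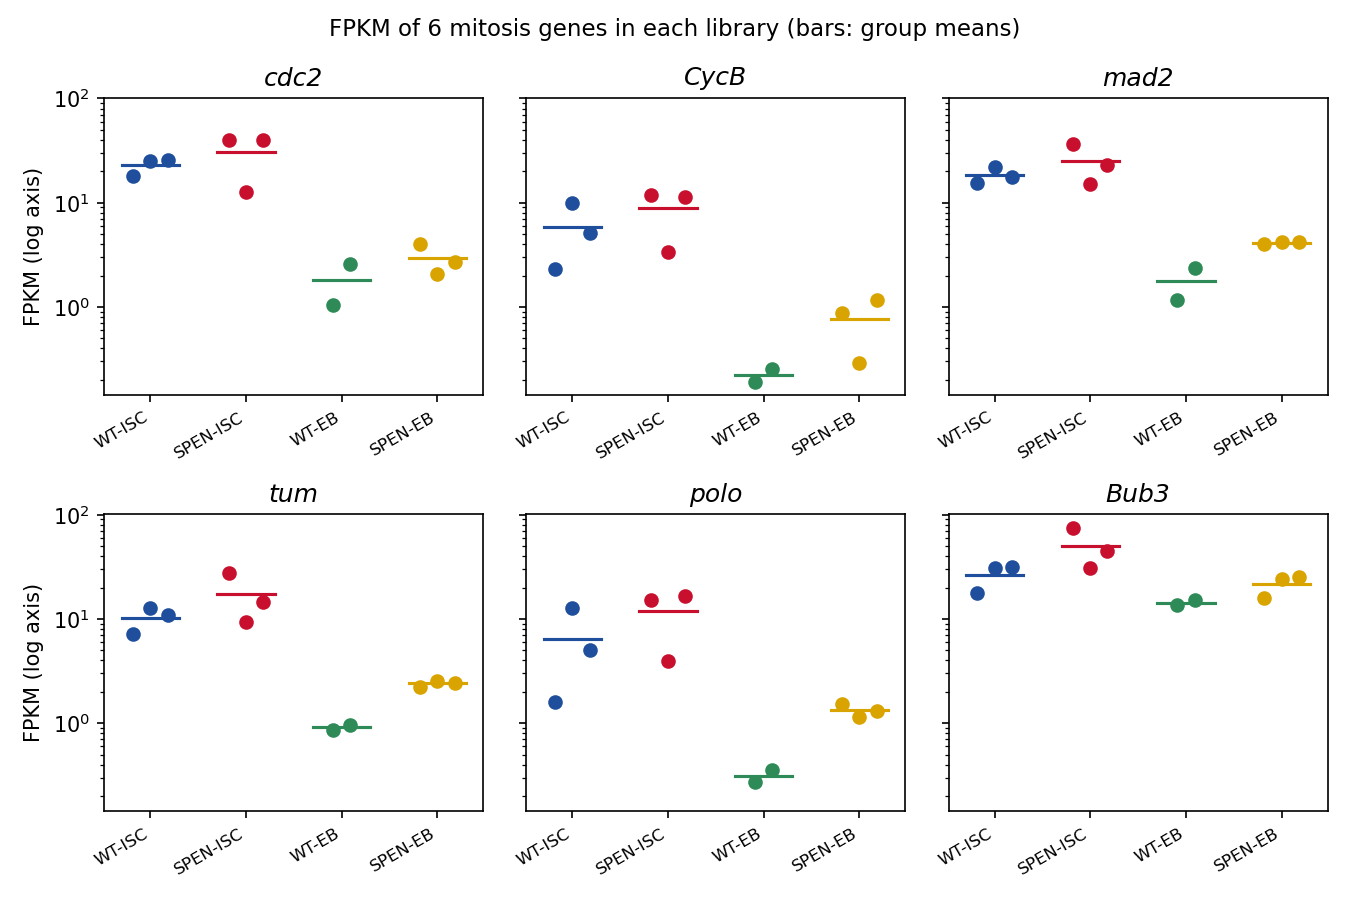
Deposited FPKM (log axis) of *cdc2*, *CycB*, *mad2*, *tum*, *polo* and *Bub3* in each library; points are libraries and bars group means. For all 6 genes the points of WT-ISC lie above those of WT-EB, by the least for *Bub3* (17.8 FPKM in the lowest WT-ISC and 15.1 FPKM in the highest WT-EB library).

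All 3 genes of the chromosomal passenger complex, which corrects faulty attachments and then moves to the midzone, were higher in WT-ISC. *ial* (chromosome arm 2L, 10856797 to 10858094), now *aurB*, encodes its kinase, Aurora B. It read 19.1, 19.2 and 20.3 FPKM in WT-ISC and 2.59 and 4.29 FPKM in WT-EB. It read 69.0, 20.9 and 25.6 FPKM in SPEN-ISC and 4.45, 5.67 and 8.30 FPKM in SPEN-EB. The WT-ISC libraries lay close to each other, and SPEN-ISC replicate 1 stood apart above the rest. For *ial* the difference on the log2 scale was 1.66 (standard error 0.40, adjusted p = 0.0121) in WT and 2.07 (standard error 0.45, adjusted p = 0.0589) under *spen* RNAi, where it missed the threshold. *Incenp* encodes the scaffold of the complex. It read 13.1, 18.5 and 17.9 FPKM in WT-ISC, 2.52 and 2.88 in WT-EB, 32.7, 13.8 and 22.9 in SPEN-ISC and 4.58, 4.54 and 6.09 in SPEN-EB. The cell types did not overlap, with log2 fold changes of 1.69 (standard error 0.38, adjusted p = 0.00805) in WT and 1.69 (standard error 0.35, adjusted p = 0.0547) under *spen* RNAi. *borr* (chromosome arm 2L, 9251472 to 9253118) encodes Borealin, which targets the complex to centromeres. It read 10.96, 11.5 and 9.39 FPKM in WT-ISC and 0.830 and 1.43 FPKM in WT-EB. It read 29.7, 9.05 and 13.9 FPKM in SPEN-ISC and 1.64, 0.977 and 2.70 FPKM in SPEN-EB. *borr* passed in both genotypes, with 2.17 (standard error 0.41, adjusted p = 0.00167) in WT and 2.61 (standard error 0.42, adjusted p = 0.0114) under *spen* RNAi.

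At the kinetochore and centromere, 3 of 4 genes were higher in WT-ISC and none passed under *spen* RNAi in the main limma fit. With all 11 libraries in the fit, limma called *Ndc80*, *Nuf2* and *Spc25* under *spen* RNAi. Without SPEN-ISC replicate 3 it called *Ndc80*, *Spc25* and *cid*. DESeq2 on exon bin counts called *Spc25*, *Ndc80* and *cid* under *spen* RNAi. *Spc25* and *Nuf2* encode subunits of the Ndc80 complex, which binds microtubules. *Spc25* read 17.6, 17.0 and 15.6 FPKM in WT-ISC, 2.32 and 3.84 in WT-EB, 29.0, 7.62 and 14.9 in SPEN-ISC and 2.63, 2.39 and 3.45 in SPEN-EB. The lowest ISC library, SPEN-ISC replicate 2, lay above every EB library. The fitted difference for *Spc25* was 1.59 (standard error 0.40, adjusted p = 0.0192) in WT and 1.92 (standard error 0.41, adjusted p = 0.0547) under *spen* RNAi. *Nuf2* read 6.78, 12.5 and 9.02 FPKM in WT-ISC, 0.935 and 1.99 in WT-EB, 20.5, 8.85 and 16.2 in SPEN-ISC and 3.69, 4.04 and 3.76 in SPEN-EB. Its log2 fold change was 1.71 (standard error 0.40, adjusted p = 0.0108) in WT and 1.46 (standard error 0.36, adjusted p = 0.104) under *spen* RNAi. *cid* encodes the histone variant that marks the centromere (CENP-A). It read 4.48, 4.76 and 6.51 FPKM in WT-ISC, 0.376 and 1.24 in WT-EB, 10.7, 2.87 and 3.23 in SPEN-ISC and 0.528, 0.659 and 1.27 in SPEN-EB. The cell types did not overlap in either genotype. For *cid* the log2 fold change was 1.66 (standard error 0.45, adjusted p = 0.0333) in WT, a call lost in 9 of 16 alternatives, and 1.77 (standard error 0.48, adjusted p = 0.173) under *spen* RNAi. *Ndc80*, which names the complex, read 5.64 to 7.28 FPKM in WT-ISC and 0.996 and 1.71 in WT-EB and missed the threshold in both genotypes (adjusted p = 0.0877 and 0.0547).

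No condensin gene passed in the main limma fit. Limma without WT-ISC replicate 1 called *barr* higher in WT-ISC. *barr* encodes the subunit that closes the condensin ring, and it was the most abundant of the 3. It read 0.692, 8.01 and 2.65 FPKM in WT-ISC and 0.707 and 0.609 FPKM in WT-EB. *barr* read 6.81, 1.09 and 11.7 FPKM in SPEN-ISC and 2.10, 0.996 and 2.25 FPKM in SPEN-EB. WT-ISC replicate 1 fell within the WT-EB libraries and SPEN-ISC replicate 2 within the SPEN-EB libraries. Its fitted log2 difference was 0.86 (standard error 0.51, adjusted p = 0.454) in WT and 0.94 (standard error 0.53, adjusted p = 1.000) under *spen* RNAi. *SMC2* and *glu*, the latter encoding SMC4, form the arms of condensin. *SMC2* held 20, 214 and 34 fragments in WT-ISC and 5 and 11 in WT-EB, and *glu* held 29, 183 and 65 and 3 and 20. Both were below the filter.

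The spindle motors did not pass in the main limma fit either, while DESeq2 on exon bin counts called *Klp61F* in both genotypes. Limma without WT-ISC replicate 1 called *Klp61F* and *Klp10A* in WT. *ncd* encodes the minus-end-directed kinesin-14, *Klp61F* the kinesin-5 that slides spindle poles apart, and *Klp10A* a kinesin-13 that depolymerises microtubules. *ncd* read 3.53, 7.01 and 7.14 FPKM in WT-ISC and 1.60 and 1.54 FPKM in WT-EB. *ncd* read 13.5, 3.58 and 9.94 FPKM in SPEN-ISC and 1.88, 1.38 and 4.03 FPKM in SPEN-EB, where SPEN-EB replicate 3 overlapped SPEN-ISC. On the log2 scale the difference was 0.91 (standard error 0.41, adjusted p = 0.335) in WT and 1.33 (standard error 0.43, adjusted p = 0.316) under *spen* RNAi. *Klp61F* was the most uneven of the 3 within a group, with 0.222, 3.74 and 1.04 FPKM in WT-ISC and 0.0334 and 0.0684 in WT-EB. Its log2 fold change in WT was 1.28 (standard error 0.51, adjusted p = 0.236). For *Klp10A* the estimate was 0.77 (standard error 0.47, adjusted p = 0.466) in WT and 0.43 (standard error 0.44, adjusted p = 1.000) under *spen* RNAi.

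Among the cytokinesis genes, 3 of 4 were higher in WT-ISC. *tum* encodes the RacGAP of centralspindlin, which *pav*, encoding its kinesin-6, completes. *tum* read 7.11, 12.9 and 10.9 FPKM in WT-ISC and 0.869 and 0.964 FPKM in WT-EB. *tum* read 27.8, 9.32 and 14.5 FPKM in SPEN-ISC and 2.25, 2.57 and 2.43 FPKM in SPEN-EB. The libraries of a group were closest together in the EB groups, and every ISC library lay above every EB library. Both genotypes gave a call for *tum*, with 2.27 (standard error 0.40, adjusted p = 0.000734) in WT and 2.16 (standard error 0.40, adjusted p = 0.0242) under *spen* RNAi. *pav* read 0.636, 5.65 and 2.19 FPKM in WT-ISC and 0.148 and 0.0826 FPKM in WT-EB. *pav* read 5.66, 0.995 and 6.21 FPKM in SPEN-ISC and 0.679, 0.0847 and 0.789 FPKM in SPEN-EB. WT-ISC replicate 1 was low for *pav*, and in WT it passed narrowly, with 1.71 (standard error 0.49, adjusted p = 0.0494), a call lost in 10 of 14 alternatives. It was below the filter under *spen* RNAi. *feo* encodes the PRC1-like bundler of midzone microtubules. It read 4.47, 6.97 and 5.99 FPKM in WT-ISC, 0.782 and 1.22 in WT-EB, 13.5, 3.97 and 7.32 in SPEN-ISC and 1.796, 1.31 and 2.99 in SPEN-EB. Its log2 fold change was 1.46 (standard error 0.42, adjusted p = 0.0485) in WT, a call lost under 12 of 16 alternatives, and 1.40 (standard error 0.41, adjusted p = 0.226) under *spen* RNAi. *scra* encodes Anillin of the contractile ring and read 2.81 to 9.75 FPKM in WT-ISC and 1.01 and 1.25 in WT-EB (adjusted p = 0.0788 in WT and 0.370 under *spen* RNAi).

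The next question was whether *spen* RNAi changed mitosis genes in ISCs. None of the 33 passed between SPEN-ISC and WT-ISC. With edgeR on recovered fragments none was called, but this test called 0 of all 7489 genes and so says nothing particular about mitosis genes. With DESeq2 on exon bin counts none was called either, where 52 of all 8125 genes were. Of the 29 that entered the limma test, none had an unadjusted p under 0.05. Among all 6371 genes tested with limma 7 were called, which is 0.11%. The fold changes of 29 of the 33 were above 0 without a filter, against 52.3% of all genes, with a median log2 fold change of 0.32 beside 0.01. With the filter the median over the genes tested was 0.34, and it ran from 0.10 without SPEN-ISC replicate 1 to 0.62 without SPEN-ISC replicate 2. *CycA* had the highest log2 fold change, 0.85 (95% interval −0.02 to 1.73, unadjusted p = 0.0556), and *Spc25* the lowest, −0.39 (95% interval −1.31 to 0.52). For *cdc2* it was 0.02 (−0.84 to 0.87) and for *mad2* 0.12 (−0.70 to 0.95).

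The intervals limit what could have been seen in ISCs. Of the 29 tested genes, 8 had an interval that stayed below 1 on the log2 scale and 25 one that stayed above −1, so a fall of that size was outside the interval for most genes and a rise of that size inside it for most. *stg* was the gene whose libraries did not overlap after scaling (3.32% of all genes were higher in this way). It read 0.193, 0.948 and 0.613 FPKM in WT-ISC and 1.37, 0.712 and 3.02 FPKM in SPEN-ISC, and in deposited FPKM SPEN-ISC replicate 2 fell within WT-ISC. In the fit without a filter its log2 fold change was 0.82 (95% interval −0.06 to 1.70, unadjusted p = 0.0635). *ial* was the gene that did not overlap in deposited FPKM (5.05% of all genes), with 20.3 FPKM in the highest WT-ISC and 20.9 in the lowest SPEN-ISC library. Its scaled log2 fold change was 0.52 (95% interval −0.45 to 1.49).

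In EBs, *spen* RNAi did not bring a mitosis gene past the threshold either. Of the 33 genes 20 entered the test of SPEN-EB against WT-EB and none was called, or had an unadjusted p under 0.05, with limma. With edgeR on recovered fragments 31 entered and none was called, where 76 of all 7213 genes were. With DESeq2 on exon bin counts 31 entered and none was called, where 497 of all 7852 genes were. Among all 5974 genes tested with limma 359 were called, which is 6.01%. Without a filter 25 of the 33 fold changes were above 0, against 60.6% of all genes, and the median was 0.17 beside 0.04. In that fit *polo* (0.75, unadjusted p = 0.0333) and *Spc25* (−0.74, unadjusted p = 0.0433) had intervals that left out 0, and neither passed after adjustment (adjusted p = 0.336 and 0.366). With the filter *polo* had the highest log2 fold change, 0.75 (95% interval −0.02 to 1.52, unadjusted p = 0.0547), and *Spc25* the lowest, −0.74 (−1.52 to 0.04, unadjusted p = 0.0610). *polo* read 0.275 and 0.356 FPKM in WT-EB and 1.16 to 1.52 in SPEN-EB, so the libraries were apart, and with the pseudocount of 0.5 FPKM the fold change of a gene at this level is understated.

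How many mitosis genes lay higher in SPEN-EB depended on scaling. In deposited FPKM 17 of the 33 were higher in SPEN-EB without overlap, beside 38.9% of all genes, and after scaling 6 were higher (*fzy*, *tum*, *polo*, *Nuf2*, *BubR1* and *Klp61F*), beside 14.0%, and 2 lower (*pim* and *Spc25*), beside 20.4%. One library decided the result for *aur*. Without WT-EB replicate 3 it was called lower in SPEN-EB, with a log2 fold change of −1.88 and an adjusted p of 0.0437 against the lone WT-EB library that remained, and with both libraries it was −0.71 (adjusted p = 0.476). Enterocyte markers moved in the same comparison. Of 8 tested, 5 were higher in SPEN-EB, and the summed level of the list was 313 to 385 FPKM in WT-EB and 3217 to 3360 FPKM in SPEN-EB. Their part in the values of the mitosis genes was not tested. The comparisons that have a group in common share its libraries, and their values are not independent.

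**Figure D4:**
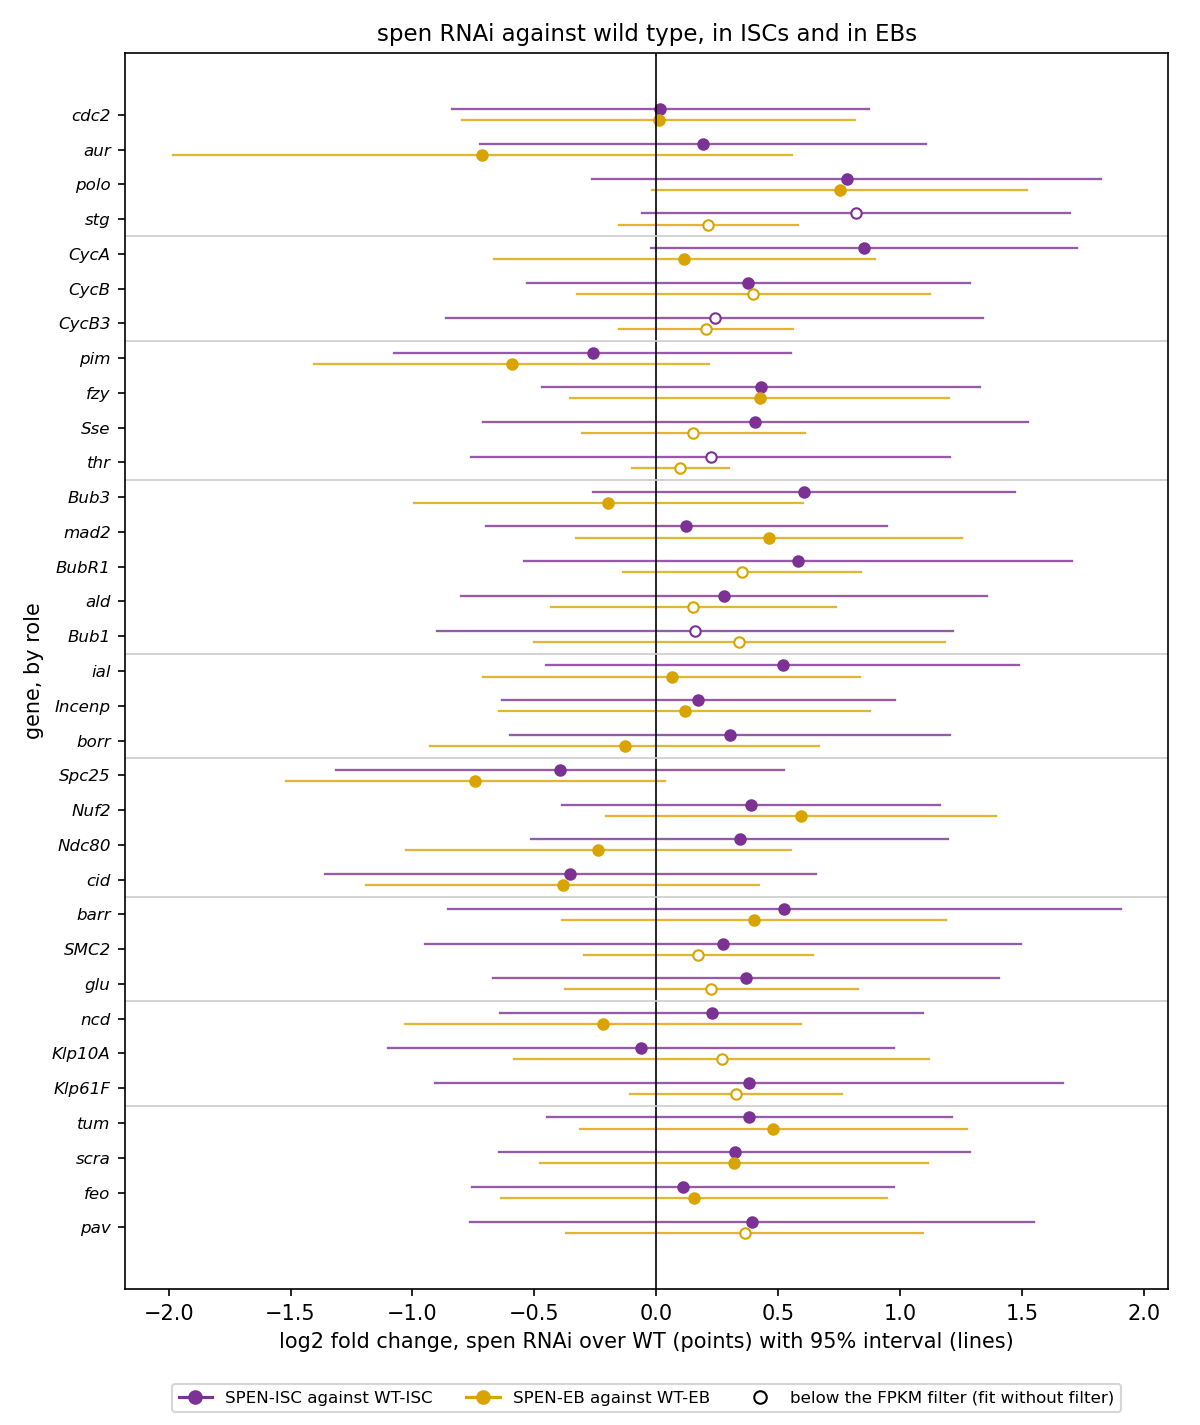
Log2 fold change of *spen* RNAi over WT for each mitosis gene, in ISCs (purple) and EBs (yellow); points are limma estimates, lines their 95% intervals, and open points are genes below the FPKM filter, taken from the fit without it. The estimates run from −0.39 (*Spc25*) to 0.85 (*CycA*) in ISCs and from −0.74 (*Spc25*) to 0.75 (*polo*) in EBs.

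Whether the RNAi acted differently in the cell types was tested as an interaction over all 11 libraries, in which all 33 genes entered. None was called and none had an unadjusted p under 0.05, in a comparison that called 0 of 7027 genes (0.0%) with limma, where 119 genes had an unadjusted p under 0.05. edgeR on recovered fragments called 0 genes and DESeq2 on exon bin counts 1, which is no mitosis gene. The estimates ran from −1.01 for *aur* (95% interval −2.69 to 0.67) to 0.28 for *Klp10A* (−1.04 to 1.60). The lowest unadjusted p was 0.113, for *Bub3*. All 33 intervals stayed below 2, and 2 of the 33 stayed above −1.

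Libraries of one group differed with the length of the gene, and this touches the longer mitosis genes. Over 7027 genes, WT-ISC replicate 1 was higher than the other WT-ISC libraries in the shortest of 4 length classes of equal size (median log2 difference 0.85) and lower in the longest (−0.77), with classes divided at 1121.5, 1805 and 2951 bases of exon. WT-ISC replicate 2 showed the reverse, with −0.77 and 0.70. The mitosis genes followed: for the 10 that are at most 1805 bases long the median was 0.51 in WT-ISC replicate 1 and −0.59 in replicate 2, and for the 23 longer ones it was −0.68 and 0.79. SPEN-ISC replicate 3 was high in long genes (0.73 in the longest class, 0.76 for the longer mitosis genes). Over all genes, SPEN-ISC replicates 1 and 2 were higher in the shortest class (0.34 and 0.35) and lower in the longest (−0.37 and −0.39). In SPEN-ISC replicate 1 the shorter and longer mitosis genes were both higher, the shorter ones more so (0.94 and 0.45). In SPEN-ISC replicate 2 both were lower, the longer ones more so (−0.32 and −0.94).

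**Figure D5:**
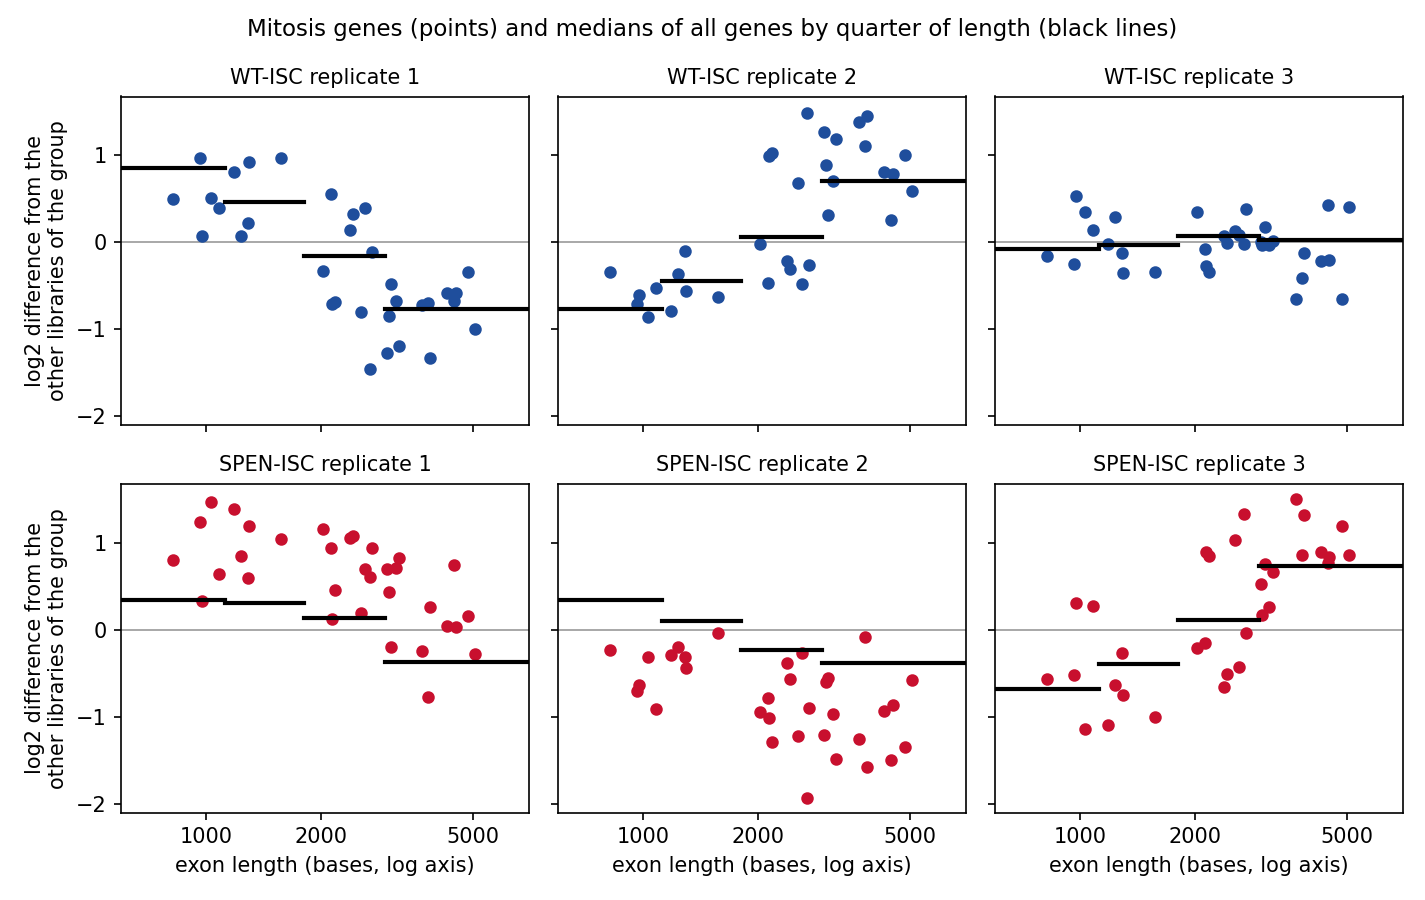
Difference of each ISC library from the mean of the other libraries of its group (log2, scaled) against exon length (log axis), with points for the 33 mitosis genes and black lines for the medians of all genes in 4 classes of length. In WT-ISC replicate 1 short genes lie above 0 and long genes below, in WT-ISC replicate 2 and SPEN-ISC replicate 3 the slope is reversed, and most points lie above the lines in SPEN-ISC replicate 1 and below them in replicate 2.

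Several genes whose WT-ISC libraries spread widely are long. *polo* (2980 bases), *CycA* (3007), *pav* (3207) and *Klp61F* (3871) all read lowest in WT-ISC replicate 1 and highest in replicate 2, while *ial* (1183) and *borr* (1298) were even across the group. The fold change of ISCs over EBs was above 0 in both length classes, with a median over the shorter genes of 1.66 in WT and 1.88 under *spen* RNAi, and over the longer ones of 1.176 and 1.38. Over all genes the median in WT ran from −0.35 in the shortest to 0.43 in the longest class. When each library was corrected for exon length, an alternative added after the data were seen, 11 of the 33 passed in WT, where 162 of all 6128 genes did, and 11 under *spen* RNAi, where 75 of 6225 did. None passed in the comparisons of SPEN with WT, where 8 of 6371 genes passed in ISCs and 242 of 5974 in EBs. The source of the length dependence was not tested. Exons of 9 mitosis genes (*fzy*, *thr*, *borr*, *glu*, *Nuf2*, *Bub3*, *mad2*, *Klp61F* and *ncd*) overlap a gene on the opposite strand, where counting that ignored strand would mix the reads.

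Other genes of the division machinery were described by lists of named genes that share no member with the 33. Of 9 APC/C subunits and E2 enzymes found, 7 were tested in WT and none passed. Of 13 other condensin and cohesin genes 10 were tested, with none called, and of 13 other kinetochore and centromere genes 6 were tested, again with none called. Of 22 other spindle and centrosome genes 14 were tested and 1 was higher in WT-ISC, *mei-38*, a spindle protein gene, at 12.6 to 16.3 FPKM against 1.66 and 1.85 FPKM in WT-EB (log2 fold change 2.08, standard error 0.41, adjusted p = 0.00241). Of 25 genes of entry control and cell cycle transcription 20 were tested and 1 was higher, *Cks30A*, which encodes a Cdk1 subunit. It read 3.51 to 5.82 FPKM in WT-ISC and at most 0.348 in WT-EB (log2 fold change 2.31, standard error 0.44, adjusted p = 0.00189), and it was called under *spen* RNAi too (2.84, standard error 0.38, adjusted p = 0.00537). In none of these lists was a gene called lower in ISCs in either genotype.

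In the comparisons of SPEN with WT, the same lists held 2 called genes, both in EBs. *cnn*, which encodes a scaffold of the mitotic centrosome, was higher in SPEN-EB, at 1.29 to 4.43 FPKM against 0.0765 and 0.249 FPKM in WT-EB (log2 fold change 1.74, standard error 0.40, adjusted p = 0.00701). *Mis12*, which encodes a kinetochore subunit, was lower, at 6.22 to 9.15 FPKM against 8.11 and 13.2 (log2 fold change −1.20, standard error 0.37, adjusted p = 0.0459), and its deposited values overlapped. In ISCs no tested gene of these lists was called.

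The gene of the rule that was not found by name, *fzr*, has its identifier in the table under the name *rap*. It encodes the Cdh1 activator of the APC/C, which keeps cyclins low outside mitosis and is needed for endocycles. Singled out after its values were seen, *rap* read 1.86, 8.60 and 3.48 FPKM in WT-ISC and 1.56 and 2.03 FPKM in WT-EB. It read 1.56, 5.11 and 5.64 FPKM in SPEN-ISC and 5.53, 2.45 and 3.71 FPKM in SPEN-EB. The groups overlapped widely, and in WT the log2 fold change was 0.28 (95% interval −0.62 to 1.17, adjusted p = 0.758). Under *spen* RNAi it was −0.31 (−1.35 to 0.74).

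The genes whose pattern over the 11 libraries was most like the mean of the 33 were *Cdk4* (Pearson r = 0.973), *sip2* (0.972), *sc* (0.970), *Klp67A* (0.964) and CG11120 (0.961), out of 6994 genes outside the list that passed the filter. *Klp67A*, a mitotic kinesin-8 gene, read 1.29 to 2.29 FPKM in WT-ISC, 0.649 to 4.25 in SPEN-ISC, 0.103 and 0.187 in WT-EB and 0.197 to 0.409 in SPEN-EB. *Cdk4*, which encodes the partner of cyclin D in G1, read 2.54 to 6.67 FPKM in WT-ISC, 2.82 to 8.21 in SPEN-ISC, 1.14 and 1.29 in WT-EB and 1.68 to 2.54 in SPEN-EB. The proneural gene *sc* read 2.58 to 8.46 FPKM in WT-ISC and at most 0.03 in WT-EB. All genes were read in the same 11 libraries, which differed in length dependence. Its part in the r values was not tested, and they are given as a description.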

How the data were processed

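The authors sequenced RNA of sorted diploid cells as stranded 100 bp paired-end libraries, mapped reads with TopHat 2.0.6 to *Drosophila* genome r5.54 and counted them on Ensembl 75 (BDGP5) genes. The labels name ribosomal RNA depletion and the published methods poly(A) capture. The deposited FPKM values are normalised for exon length and fragments per library. The deposited exon bin counts of the authors are whole reads per exon part, and were summed per gene. Columns of group means (8) and 16 columns of samples that match no label were not used.

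Libraries were scaled to each other by trimmed means of log ratios (30% of ratios and 5% of levels trimmed), and log2(FPKM + 0.5) was fitted with limma 3.58.1 (trend, robust) in R 4.3.3, on the libraries of the groups compared, for genes that reached 1 FPKM in a number of libraries equal to the size of the smaller group. P-values are two-sided and were adjusted over all tested genes by the Benjamini-Hochberg method. A log2 fold change on this scale understates the change of low genes. The FPKM values were whole multiples of 1 fragment for 95.0% of 14595 genes in all libraries, including all 33 mitosis genes. The tolerance was 0.02 fragments, or a small fraction of the value for high counts, and values without fragments counted as whole. edgeR 4.0.16 on these fragments called 121 genes between WT-ISC and WT-EB. Exon bin counts were tested with edgeR and DESeq2 1.42.0. The fits were also run on simulated counts with planted changes, a common spread for all genes and no length dependence. Such data do not measure the error rate of the tests on these libraries. For members the per-library values are given where the gene passed in a comparison of ISCs and EBs or was the most abundant of its class. The 34 names and the further lists were chosen with earlier results of these data known. Present gene symbols were matched for 14068 of 14595 identifiers.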

Additional observations from a re-analysis of the deposited data

How the results depend on the processing

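The direction of the fold change of ISCs over EBs was kept for each mitosis gene called, under each alternative: of 238 tests of the 15 genes called in WT, 156 kept the call and 82 lost it, and of 136 tests of the 8 genes called under *spen* RNAi, 104 kept it and 32 lost it. *cdc2* kept its call in 16 of 16 alternatives in WT and in 16 of 17 under *spen* RNAi. The count of the 33 called in WT, 15, was 16 with DESeq2 and 14 with median-of-ratios scaling. It was 9 with all 11 libraries in the fit, 6 with edgeR on exon bin counts and 8 with edgeR on recovered fragments. Without a filter it was 1, and without scaling 7. Under *spen* RNAi the count of 8 was 14 with all 11 libraries, 20 with DESeq2, 2 with edgeR on exon bin counts, 0 without a filter and 2 with edgeR on recovered fragments. Leaving out 1 library gave 4 to 21 of the 33 in WT, 2 to 14 under *spen* RNAi, 0 to 0 for SPEN-ISC against WT-ISC, 0 to 1 for SPEN-EB against WT-EB and 0 to 0 for the interaction. Where this left 1 WT-EB library, that library was assumed to vary like the other group. Without the filter more low genes enter, and the cause of the other shifts was not tested.

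Over all genes, the 209 called between WT-ISC and WT-EB were 119 with all 11 libraries, 401 with DESeq2, 112 with edgeR on exon bin counts, 21 without a filter, 97 without scaling (90 higher and 7 lower, against 156 and 53) and 121 with edgeR on recovered fragments. The 7 between SPEN-ISC and WT-ISC were 19 with all 11 libraries, 52 with DESeq2, 0 with edgeR on exon bin counts, 0 without a filter, 2 without scaling and 0 with edgeR on recovered fragments. The 359 between SPEN-EB and WT-EB were 46 with all 11 libraries, 73 with edgeR on exon bin counts, 39 without a filter, 967 without scaling (928 higher and 39 lower, against 221 and 138) and 76 with edgeR on recovered fragments. The 44 between SPEN-ISC and SPEN-EB were 77 with all 11 libraries, 188 with DESeq2, 20 with edgeR on exon bin counts, 75 with the length correction, 2 without a filter, 71 without scaling and 18 with edgeR on recovered fragments. For the interaction, 0 became 1 with DESeq2 and 1 with the length correction. Leaving out 1 library gave 73 to 2034, 1 to 40, 104 to 1030, 28 to 92 and 0 to 0 genes in this order of comparisons. The recovered fragments and the length correction were chosen after seeing the data.

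The replicate numbers were not taken as pairs: over 15 pairs of groups' libraries with the same number, the correlation of their deviations ran from −0.63 to 0.62 and was over 0.1 in 5, and over 30 other pairs it ran from −0.72 to 0.70. With a replicate block, 13 of the 33 were called in WT, 10 under *spen* RNAi and 0 in the other comparisons, and over all genes 36 between SPEN-ISC and WT-ISC, 698 between SPEN-EB and WT-EB and 76 between SPEN-ISC and SPEN-EB.

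Depth limits the genes with few fragments: 9 of the 33 were below the filter in WT, and their fold changes rest on at most 24 fragments in a WT-EB library.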
